A study of Mus musculus with 6 samples.

Results

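Expression of the transcription factors Snai1, Snai2, Twist1, Twist2, Zeb1, Zeb2 and Prrx1 and of the filament gene Vim was followed in mouse embryonic stem cells (mESCs) grown in 3 media. These 8 genes and the gene lists used below were chosen by name, with earlier results of these data known. The 8 are the rows of the deposited expression table that carry their symbols, and all 8 were found among 28584 genes. All 8 passed the filter on low values that left 18556 genes for testing. The cells came from 1 line, derived from a C57BL/6 × 129S6 blastocyst. The line was first kept with serum and LIF on mitomycin C-inactivated mouse embryonic fibroblast (MEF) feeders and then moved to medium with serum and 1000 U/mL LIF (LIF-ESCs), where 10 ng/mL OSM replaced LIF (OSM-ESCs) or with no added cytokine (-LIF-ESCs). RNA was taken at P10, passage 10 in these media, from 2 biological replicates per group. Whether feeder cells were still present in these cultures is not given in the sources used here. LIF and OSM are cytokines of the interleukin-6 family that signal through the shared receptor chain gp130 and the transcription factor Stat3, and the study asked whether OSM can stand in for LIF.

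Snai1, Snai2, Twist1, Twist2, Zeb1 and Zeb2 encode the factors best known for driving the epithelial-to-mesenchymal transition, in which cells give up cell-to-cell junctions and take on a motile form. Snail and Zeb proteins bind E-boxes, short DNA motifs, and repress junction genes such as Cdh1, which encodes E-cadherin. Twist proteins are basic helix-loop-helix factors of early mesoderm and connective tissue, and Prrx1 is a homeodomain factor of limb and connective tissue mesenchyme. Vim encodes vimentin, the main intermediate filament of mesenchymal cells. The same genes are also active in ordinary fibroblasts, so that their RNA in a culture can come from any cell of mesenchymal type.

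The bases upstream of 3 of the genes are shown because their levels below differ the most in kind: Snai1 was nearly level across the media, Twist1 was the highest of the factors in LIF-ESCs, and Prrx1 had the widest range. Of the 8 genes, 6 have a window among the 32851 RefSeq promoters of GRCm38.p6 (250 bases before each gene start), and Snai2 and Zeb1 have none. The windows run 5′ to 3′ on the strand of the gene, at chr2:167537945-167538194 for Snai1 (plus strand), chr12:33957421-33957670 for Twist1 (plus strand) and chr1:163313711-163313900 for Prrx1 (minus strand, cut to the 190 bases that lie outside the annotated gene). Capitals mark matches, on either strand, to the E-box CAGGTG or CACCTG that Snail and Zeb proteins bind, to the TATA box TATAAA or TTTATA and to the CCAAT box CCAAT or ATTGG. The Stat motif TTCNNNGAA was searched as well and was matched in none of the windows shown. Of the other genes with a window, only Zeb2 had a match. It lay in overlapping windows inside the annotated gene and began 173 and 147 bases before the gene starts that these windows precede.
Snai1: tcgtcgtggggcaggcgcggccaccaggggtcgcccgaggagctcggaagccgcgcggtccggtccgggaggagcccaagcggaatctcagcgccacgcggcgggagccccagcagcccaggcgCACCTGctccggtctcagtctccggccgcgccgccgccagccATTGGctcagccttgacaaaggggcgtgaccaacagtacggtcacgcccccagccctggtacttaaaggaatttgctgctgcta
Twist1: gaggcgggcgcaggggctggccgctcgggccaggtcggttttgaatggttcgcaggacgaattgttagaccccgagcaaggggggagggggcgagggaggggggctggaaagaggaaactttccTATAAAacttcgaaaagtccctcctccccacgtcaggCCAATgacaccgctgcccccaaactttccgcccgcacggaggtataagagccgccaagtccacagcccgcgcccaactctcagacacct
Prrx1: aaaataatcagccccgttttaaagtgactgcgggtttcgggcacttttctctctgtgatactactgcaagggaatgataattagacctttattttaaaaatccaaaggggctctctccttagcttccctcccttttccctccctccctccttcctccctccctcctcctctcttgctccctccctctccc
The Snai1 window holds an E-box that begins 126 bases before the start and a CCAAT box 84 bases before it. It also holds 27 CpG dinucleotides at a GC content of 70.0%, against a median of 6 CpG and 52.4% GC over all windows. In the Twist1 window a TATAAA begins at 126 bases, a CCAAT box at 89 bases, and there are 18 CpG. No motif was matched in the Prrx1 window, which holds 4 CpG in 250 bases at a GC content of 47.6%. Of all windows, 37.8% hold fewer CpG than that of Prrx1. Of all windows, 17.2% hold the E-box, 12.4% the TATA box, 33.8% the CCAAT box and 7% the Stat motif. A match is a run of letters and not a measured binding site.

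Expression is given as TPM, the reads of a gene divided by its length and scaled to a common total per library, so levels of different genes can be compared on this scale. The libraries held 20712941 to 28994418 reads in genes, recovered from the TPM values and exon lengths. All 10 stem cell markers listed, among them Pou5f1, Nanog and Sox2, were above 1 TPM in every library. Their summed level was 5427 to 5439 TPM in -LIF-ESCs and 6915 to 7482 TPM in the other libraries. In -LIF-ESCs most of it came from Dppa5a, at 2949 and 2935 TPM. Gene by gene, the median TPM ratio of the 10 to -LIF-ESCs was 1.86 with LIF and 1.66 with OSM. Fibroblast markers also differed between the media. The summed level of 15 such genes, which encode collagens and other matrix and surface proteins, was 98.8 and 92.4 TPM in -LIF-ESCs, 436 and 434 TPM in LIF-ESCs and 620 and 608 TPM in OSM-ESCs. In -LIF-ESCs 7 of the 15 were under 1 TPM and Fap was at 0, whereas in the other libraries 1 was under 1 TPM. Primitive streak markers ran the other way, with a summed level of 76.3 to 80.3 TPM in -LIF-ESCs and 6.51 to 8.45 TPM elsewhere. In -LIF-ESCs most of it came from T, at 61.9 and 59.4 TPM. In bulk RNA, fewer cells of a type and less RNA per cell cannot be told apart.

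**Figure D1:**
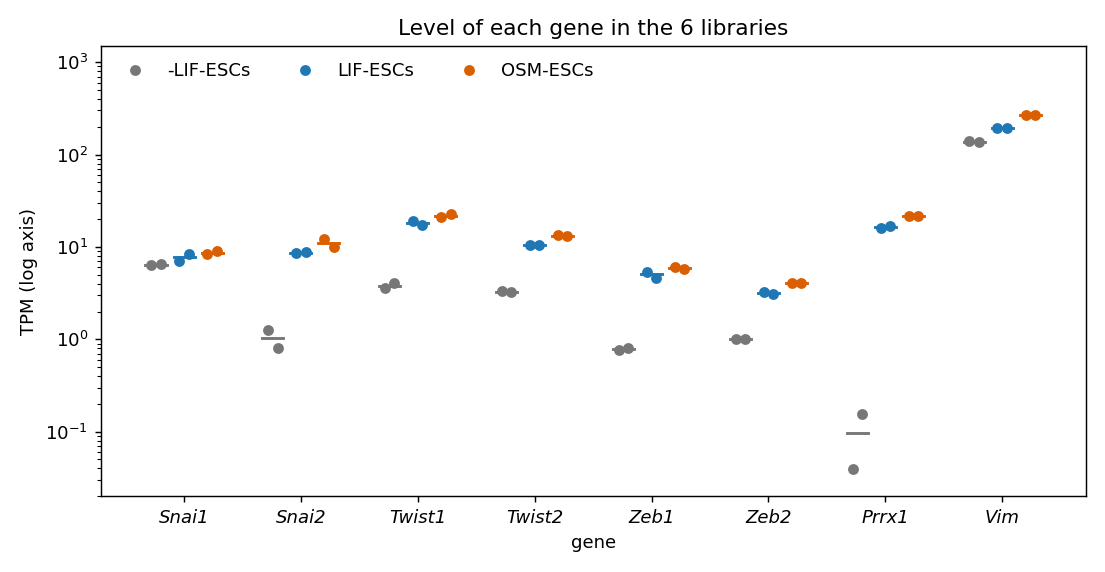
Level of the 8 genes in each library, in TPM on a log axis. Points are the 2 libraries of a group, short lines their mean, and colours the 3 media. Prrx1 lies near 0.1 TPM in -LIF-ESCs and near 20 TPM in the other groups, while Snai1 stays between 6.32 and 8.95 TPM in all 6 libraries.

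Against -LIF-ESCs, the mesenchymal factors other than Snai1 were higher in both cytokine media. At an adjusted p under 0.05 Snai1 was higher in OSM-ESCs but not in LIF-ESCs, and in neither with the libraries rescaled by the median ratio. In LIF-ESCs, 6 of the 8 genes were called higher, which asked for a log2 fold change of 1 or more beside an adjusted p under 0.05, where 13.3% of all genes tested were. Without a limit on the fold change 7 of 8 were higher at an adjusted p under 0.05, against 42.2% of all genes, and 0 were lower, against 25.9%. In OSM-ESCs the same rules gave 6 of 8 against 14.2%, 8 of 8 against 42.9% and 0 against 25.4%. The 2 comparisons share the -LIF-ESC libraries. Fold changes are given on the log2(TPM + 1) scale, and for genes of low TPM they come out smaller than the true change. Over all genes tested the median log2 fold change was 0.17 for LIF and 0.18 for OSM, so that changes are to be read against this shift, and over the 8 genes it was 1.59 and 1.85.

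Prrx1 showed the widest difference of the 8. Its level was 0.0399 and 0.155 TPM in -LIF-ESCs (5 and 16 reads), 15.9 and 16.8 TPM in LIF-ESCs and 21.6 and 21.5 TPM in OSM-ESCs. The gene was thus close to absent in both -LIF-ESC libraries and well expressed in the other 4. Its log2 fold change was 3.98 ± 0.08 (SE, n = 2 per group, limma adjusted p = 4.48e-06) in LIF-ESCs and 4.36 ± 0.08 (adjusted p = 3.14e-06) in OSM-ESCs. In TPM this was 167-fold, with an exact 95% interval from counting alone of 116 to 287, and 221-fold, with an interval of 153 to 379. Since the -LIF-ESC libraries differed from each other, the ratios were 105 and 139 without -LIF-ESC replicate 1 and 409 and 540.0 without replicate 2. Prrx1 lies on chromosome 1 of GRCm38 from 163245119 to 163313710 on the minus strand. Its paralog Prrx2 did not rise with it. Prrx2 was at 7.79 and 7.23 TPM in -LIF-ESCs, 5.44 and 4.64 TPM in LIF-ESCs and 6.71 and 7.27 TPM in OSM-ESCs, and the ratio of Prrx1 to Prrx2 went from between 0.00512 and 0.0215 in -LIF-ESCs to between 2.92 and 3.62 in the other libraries. Prrx2 was lower in LIF-ESCs, by a log2 fold change of -0.50 (adjusted p = 0.00641).

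The 2 Snail genes differed from each other. Snai2, also called Slug, was at 1.27 and 0.798 TPM in -LIF-ESCs, 8.60 and 8.72 TPM in LIF-ESCs and 12.0 and 10.1 TPM in OSM-ESCs. Both cytokine groups lay clear of -LIF-ESCs, where the gene rested on 29 and 15 reads. The log2 fold change was 2.26 ± 0.14 (SE, adjusted p = 9.66e-05) in LIF-ESCs and 2.57 ± 0.14 (adjusted p = 6.08e-05) in OSM-ESCs. Snai1, which encodes Snail, was at 6.32 and 6.56 TPM in -LIF-ESCs, 7.04 and 8.48 TPM in LIF-ESCs and 8.30 and 8.95 TPM in OSM-ESCs. The lower LIF-ESC library was closer to -LIF-ESCs than to its own replicate. The log2 fold change of Snai1 was 0.23 ± 0.10 (adjusted p = 0.0939) in LIF-ESCs and 0.37 ± 0.10 (adjusted p = 0.0214) in OSM-ESCs. With the libraries rescaled by the median ratio these values were 0.07 and 0.20, and neither passed the test. With either -LIF-ESC library or either OSM-ESC library left out, Snai1 in OSM-ESCs was at 0.32 to 0.42 and did not pass (adjusted p = 0.0507 to 0.0968), nor did it with voom on recovered reads (0.29, adjusted p = 0.127), and Snai1 passed in LIF-ESCs when LIF-ESC replicate 1 was left out (0.35, adjusted p = 0.0353). Snai2 exceeded Snai1 by a ratio of 1.03 to 1.45 in the cytokine libraries and was 0.122 to 0.201 of it in -LIF-ESCs. Snai1 lies on chromosome 2 from 167538195 to 167542814 and Snai2 on chromosome 16 from 14705852 to 14709385, both on the plus strand.

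Both Twist genes were expressed in -LIF-ESCs and higher with either cytokine. Twist1 was at 3.58 and 4.03 TPM in -LIF-ESCs, 19.3 and 17.2 TPM in LIF-ESCs and 21.1 and 22.5 TPM in OSM-ESCs. For Twist1 the log2 fold change was 2.00 ± 0.09 (SE, adjusted p = 2.98e-05) in LIF-ESCs and 2.25 ± 0.09 (adjusted p = 2.04e-05) in OSM-ESCs. The groups did not overlap. Twist2, expressed in the dermis among other tissues, was at 3.37 and 3.22 TPM in -LIF-ESCs, 10.4 and 10.4 TPM in LIF-ESCs and 13.4 and 13.1 TPM in OSM-ESCs. Replicates of Twist2 lay closer together than those of Twist1 in every group. For Twist2 the log2 fold change was 1.41 ± 0.06 (adjusted p = 3.25e-05) in LIF-ESCs and 1.74 ± 0.06 (adjusted p = 1.75e-05) in OSM-ESCs. The ratio of Twist1 to Twist2 was 1.06 and 1.252 in -LIF-ESCs and between 1.57 and 1.86 in the other libraries. Twist1 lies on chromosome 12 from 33957671 to 33959829 and Twist2 on chromosome 1 from 91801461 to 91848028, both on the plus strand.

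The 2 Zeb genes, which encode large zinc-finger homeodomain repressors, were the lowest of the 8 in the cytokine media. Zeb1 was at 0.757 and 0.796 TPM in -LIF-ESCs, 5.42 and 4.65 TPM in LIF-ESCs and 6.03 and 5.78 TPM in OSM-ESCs. For Zeb1 the log2 fold change was 1.76 ± 0.10 (SE, adjusted p = 7.45e-05) in LIF-ESCs and 1.96 ± 0.10 (adjusted p = 5.17e-05) in OSM-ESCs. Zeb2 was at 1.01 TPM in both -LIF-ESC libraries, 3.24 and 3.09 TPM in LIF-ESCs and 4.12 and 4.08 TPM in OSM-ESCs. For Zeb2 the log2 fold change was 1.05 ± 0.10 (adjusted p = 0.000351) in LIF-ESCs and 1.34 ± 0.10 (adjusted p = 0.000141) in OSM-ESCs. Rescaled by the median ratio, Zeb2 was at 0.94 in LIF-ESCs, still past the test but under the limit for a call. Zeb1 in -LIF-ESCs was 0.746 and 0.785 of Zeb2, and in the other libraries it was 1.42 to 1.67 times Zeb2, so the order of the pair turned. The long transcripts of both genes gave 76 reads or more in every library. Zeb1 lies on chromosome 18 from 5591860 to 5775467 on the plus strand and Zeb2 on chromosome 2 from 44983632 to 45117395 on the minus strand. The table lists 6 gene models on the other strand that overlap Twist2, Zeb1 or Zeb2, the highest of them Gm29100 over Twist2 at 1.66 to 7.63 TPM, and the strand setting of the counting is not given in the sources used here.

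Vim was by far the most abundant of the 8 in every library and rose by a smaller factor than the regulators other than Snai1. Its level was 139 and 135 TPM in -LIF-ESCs, 192 and 194 TPM in LIF-ESCs and 266 and 267 TPM in OSM-ESCs. The 3 groups stood apart, with replicates within a few TPM of each other. The log2 fold change was 0.49 ± 0.03 (SE, adjusted p = 8.89e-05) in LIF-ESCs and 0.95 ± 0.03 (adjusted p = 1.17e-05) in OSM-ESCs, both under the limit of 1 for a call. After rescaling it was 0.30 and 0.76. Vim lies on chromosome 2 from 13573927 to 13582826 on the plus strand.

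**Figure D2:**
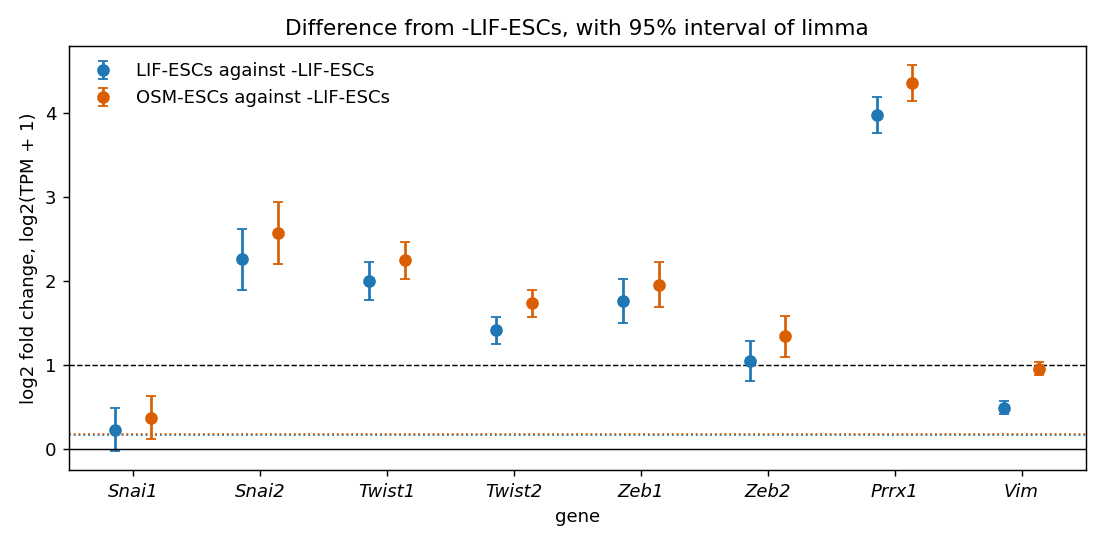
Log2 fold change of each gene in LIF-ESCs and OSM-ESCs against -LIF-ESCs, on the log2(TPM + 1) scale, with the 95% interval of limma (n = 2 per group). The dotted lines mark the medians of all genes tested, 0.17 and 0.18, and the dashed line the limit of 1. Prrx1 stands highest at 3.98 and 4.36, and Snai1 lies near the medians. Every OSM value is above its LIF value, as for 9747 of the 18556 genes tested.

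Ordered by level, Vim led in all libraries and the order of the factors differed between the media. In -LIF-ESCs Snai1 was the highest factor and Prrx1 the lowest, and Snai2 and Zeb2 overlapped. In LIF-ESCs the order was Twist1, Prrx1, Twist2, Snai2, Snai1, Zeb1 and Zeb2 in both libraries, with Snai2 and Snai1 closer to each other than the SD of Snai1 (7.76 ± 1.02 TPM, n = 2). Prrx1 (21.5 ± 0.0359 TPM, SD) fell inside the range of Twist1 (21.8 ± 1.02 TPM) in OSM-ESCs. The other places were as in LIF-ESCs. Summed over the 7 factors, the level was 16.3 and 16.6 TPM in -LIF-ESCs, 69.9 and 69.3 TPM in LIF-ESCs and 86.6 and 86.1 TPM in OSM-ESCs. This sum was lowest in -LIF-ESCs and highest in OSM-ESCs, as was that of the fibroblast markers given above. In -LIF-ESCs the largest part of the marker sum was Mmp2, at 40.4 and 38.2 TPM. The median TPM ratio to -LIF-ESCs was 3.98 with LIF and 4.89 with OSM for the 8 genes. For the markers tested it was 11.9 and 17.1. Of the 14 markers tested, 13 were higher in both cytokine media at an adjusted p under 0.05, against 42.2% and 42.9% of all genes. Mmp2 was lower. The median log2 fold change of the markers was 2.71 with LIF and 3.17 with OSM. Lox was at 6.71 and 7.14, Col3a1 at 3.59 and 3.99 and Pdgfrb at 0.23 and 0.68. After rescaling Pdgfrb no longer passed in LIF-ESCs (0.07, adjusted p = 0.416). The part of fibroblasts in the levels of the 8 genes was not tested. Primitive endoderm markers were also higher with cytokine, at a summed 42.4 and 42.7 TPM in -LIF-ESCs, 110 to 112 TPM in LIF-ESCs and 88.4 to 89.9 TPM in OSM-ESCs, with Lama1 at 2.81 and Sox7 at 2.26 on the log2 scale in LIF-ESCs. The lowest of that list in LIF-ESCs were Sox17 (0.62) and Dab2 (0.35, and 0.18 with adjusted p = 0.158 after rescaling), and in OSM-ESCs they were at 0.05 and 0.11 and did not pass. On the same scale, the neural and neural crest markers went both ways, with Foxd3 at 1.96, Sox1 at 1.68, Nes at -1.26 and Tfap2a at -1.53. Stem cell markers ran from Klf4 at 2.81 and Tfcp2l1 at 1.80 to Dppa5a at 0.06, which did not pass, and Nanog at -0.58. After rescaling Dppa5a was lower (-0.13, adjusted p = 0.0201). Among streak markers Foxf1 was at 0.93, Tbx6 at -0.27 (not past the test), Lhx1 at -2.27 and T at -5.13. Of macrophage and endothelial markers, Cd68 was lower (-1.28) and Pecam1 higher (0.53), and Csf1r (0.06) and Tek (0.07) did not pass.

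**Figure D3:**
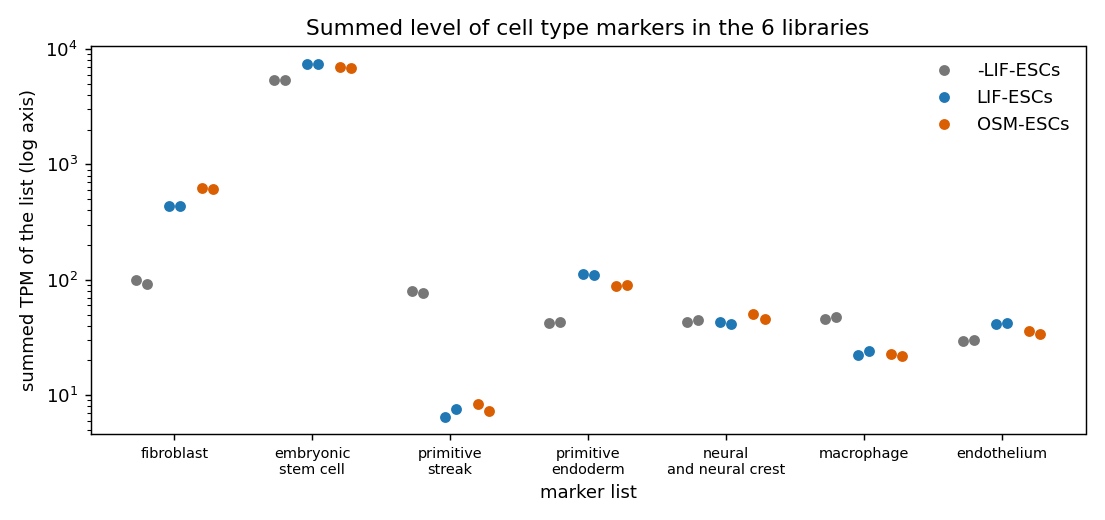
Summed level of each marker list in the 6 libraries, in TPM on a log axis, with points for libraries and colours for media. Fibroblast markers lie at 92.4 to 98.8 TPM in -LIF-ESCs and at 434 to 620 TPM in the other groups, while primitive streak markers are highest in -LIF-ESCs.

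The other lists place the 8 genes beside what they are known to act on. Of 12 further genes for transition factors, 3 were higher in LIF-ESCs (Foxc2, Sox4 and Tcf4), 4 lower (among them Snai3, Gsc and Prrx2) and 5 did not pass, with a median log2 fold change of -0.02. Foxc2, a forkhead factor of mesoderm, rose from 0.195 and 0.434 TPM to 2.23 and 2.69 TPM (1.40, adjusted p = 0.000607), and Tcf4, a helix-loop-helix partner of Twist, rose by 0.43. Snai3, the third Snail gene, went from 7.32 and 9.37 TPM to 1.57 and 3.95 TPM (-1.38, adjusted p = 0.0119), and Gsc, a factor of the primitive streak, changed by -1.34. In OSM-ESCs 3 were higher, 3 lower and 6 did not pass, where 42.9% of all genes were higher and 25.4% lower. After rescaling the split was 3 higher and 5 lower in both media. Without -LIF-ESC replicate 2, 11 were tested, of which 2 were lower with LIF and 1 with OSM. These genes therefore did not share 1 direction, which is also so over all genes tested.

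Epithelial genes were mostly lower with cytokine. Of 20, 16 were lower in LIF-ESCs, where 25.9% of all genes were, and 2 higher (Grhl2, 0.44, and Esrp1, 0.33). In OSM-ESCs 16 were lower, where 25.4% of all genes were, and 3 higher, and the medians were -0.64 and -0.78. The keratin genes fell the most: Krt19 went from 573 and 556 TPM to 2.07 and 1.55 TPM in LIF-ESCs (-7.66, adjusted p = 2.19e-06), and Krt8 from 994 and 970 TPM to 12.6 and 12.9 TPM (-6.16, adjusted p = 3.66e-06). Cdh1 was at 447 and 445 TPM in -LIF-ESCs, 223 and 220 TPM in LIF-ESCs and 222 and 211 TPM in OSM-ESCs. Its level was thus near one value in both cytokine groups, at -1.01 (adjusted p = 1.63e-05) and -1.04 (adjusted p = 1.42e-05) on the log2 scale against -LIF-ESCs, and in LIF-ESCs it lay above the level of Vim. Grhl2 encodes a transcription factor and Esrp1 a splicing regulator of epithelial cells. After rescaling Grhl2 was at 0.27 and still passed, while Esrp1 was at 0.15 (adjusted p = 0.0595), and the 3 higher in OSM-ESCs became 1.

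Mesenchymal genes were mostly higher with cytokine, 16 of 20 in LIF-ESCs and 16 of 20 in OSM-ESCs, and the other 4 were lower in each. Over all genes 42.2% and 42.9% were higher and 25.9% and 25.4% lower. The medians were 1.88 and 2.35. Lox, a collagen cross-linking enzyme, rose by 6.71 in LIF-ESCs, from 0.0735 and 0.0894 TPM to 112 and 112 TPM, and Tnc, the matrix protein tenascin C, rose by 5.89. Fn1, which encodes fibronectin, rose from 239 and 237 TPM to 383 and 377 TPM (0.67, adjusted p = 2.8e-05). Cdh2, which encodes N-cadherin, rose from 5.17 and 6.05 TPM to 6.94 and 7.97 TPM (0.36, adjusted p = 0.0264), a small change beside those of Lox and Tnc. Cdh2 no longer passed in LIF-ESCs after rescaling (0.19, adjusted p = 0.142), and the list then had 14 higher and 4 lower. Tagln, a smooth muscle actin-binding protein, and Tgfbi, a matrix protein induced by TGF-beta, were lower at -1.07 and -0.76. Of these 20 genes, 5 are also on the fibroblast list (Col1a1, Col3a1, Lox, Mmp2 and Pdgfrb).

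Genes of TGF-beta signalling, the pathway best known for inducing these factors, moved both ways. Of 14, 10 were higher and 3 lower in LIF-ESCs, against 42.2% and 25.9% of all genes, with a median of 0.59, and 10 and 2 in OSM-ESCs, against 42.9% and 25.4%, with a median of 0.55. Rescaling changed these splits to 8 and 4 and to 8 and 3, and the 2 lower in OSM-ESCs were 1 without either -LIF-ESC library or without OSM-ESC replicate 2. Smad7, an inhibitor of the pathway, rose from 22.2 and 19.9 TPM to 65.0 and 61.1 TPM (1.54, adjusted p = 2.6e-05). Among the ligands, Tgfb3 rose by 1.39 and Tgfb2 fell from 23.98 and 25.13 TPM to 1.23 and 1.65 TPM (-3.39, adjusted p = 5.11e-05). Smad3, which carries the signal to the nucleus, changed by -0.65.

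Among 13 genes for partners and turnover, corepressors and ubiquitin ligase parts that act with Snail and Zeb proteins, 6 were higher, 1 lower and 6 did not pass in LIF-ESCs, and in OSM-ESCs 6 were higher and 2 lower. The count of higher genes is near the share over all genes, 42.2% and 42.9%. Rescaling changed these splits to 5 and 4 and to 3 and 5. Past the test under both scalings, Ctbp2, a corepressor bound by Zeb proteins, rose from 41.2 and 41.9 TPM to 194 and 191 TPM (2.19, adjusted p = 2.35e-06), and Hdac1, a histone deacetylase, rose by 1.06. Kdm1a, the demethylase recruited by Snail, changed by -0.37, and Rcor1 by -0.09 without passing (-0.27 and lower after rescaling). Apart from Vim, 11 of 12 intermediate filament and lamin genes were tested, and 8 were higher and 3 lower in both cytokine media. The lower ones were near the share of 25.9% and 25.4% over all genes and the higher ones above 42.2% and 42.9%. After rescaling Lmnb2 was no longer among the higher in OSM-ESCs (0.14, limma adjusted p = 0.0944), and the split in LIF-ESCs was unchanged. Ina and Nefl, of neurons, were among the higher at 2.16 and 1.12 in LIF-ESCs, and Nes and Des, of progenitors and muscle, among the lower at -1.26 and -1.11. Of 5 gene models of the miR-200 family, microRNAs that target Zeb1 and Zeb2, 2 are in the table, and the only one tested, Mir200a, had 0 or 1 read in every library and did not pass in any comparison.

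**Figure D4:**
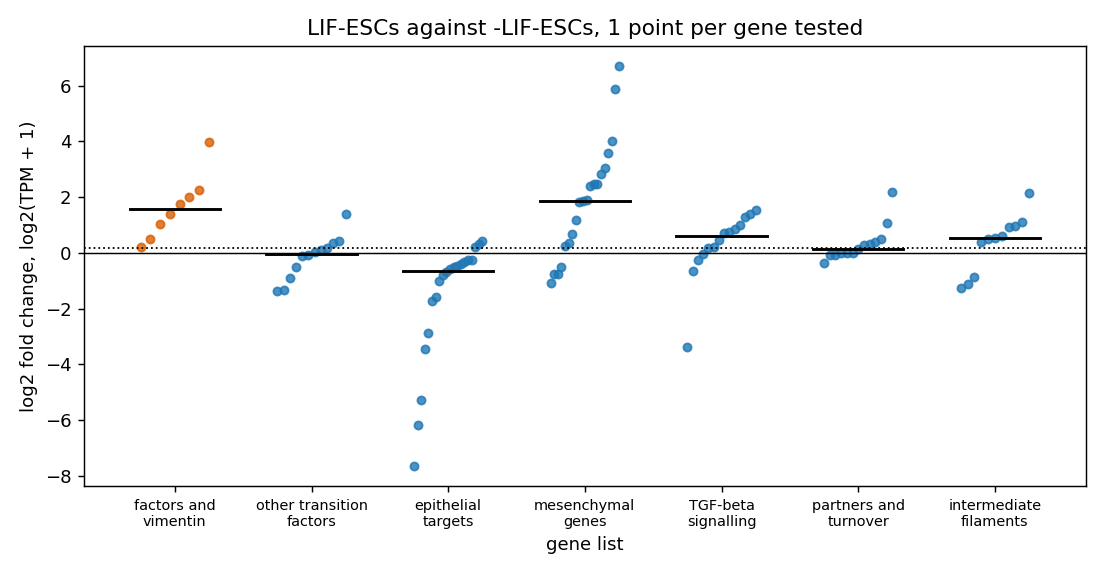
Log2 fold change of LIF-ESCs against -LIF-ESCs for each gene tested, on the log2(TPM + 1) scale, by list, with the median of a list as a thick line and the median of all genes (0.17) dotted. The 8 genes and the mesenchymal genes have medians of 1.59 and 1.88, and the epithelial genes lie mostly below 0, down to -7.66.

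Between the 2 cytokine media the differences were small, and all 8 log2 fold changes of OSM-ESCs against LIF-ESCs were above 0. So were those of 9747 of the 18556 genes tested, and the 95% intervals of Snai1, Snai2 and Zeb1 included 0. By TPM, OSM-ESCs held 1.38 times as much Vim as LIF-ESCs, a log2 fold change of 0.47 (95% interval 0.39 to 0.54, adjusted p = 0.0256), and Vim was the only one of the 8 past the test, where 0.463% of all genes tested were higher and 0.129% lower. No member was called, against 0.0323% of all genes called higher. The fit of only these 2 groups, eBayes without a trend, the replicate block and the fits without any 1 of the 6 libraries all left Vim short of the threshold (adjusted p = 0.0693 to 0.229), with a log2 fold change of 0.46 to 0.47 throughout. These fits let few genes of any kind pass, between 0 and 12 where the fit over all libraries passed 110. Both OSM libraries lay above both LIF libraries for 7 of the 8 genes, all but Snai1, as for 26.3% of all genes tested, and 5 were higher at an unadjusted p under 0.05, as for 9.8%.

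The factors themselves had log2 fold changes of 0.14 to 0.38 between these media. Prrx1 was 0.38 higher in OSM-ESCs (95% interval 0.17 to 0.59, adjusted p = 0.144) and Twist2 0.32 higher (0.16 to 0.49, adjusted p = 0.116). For Snai2 the value was 0.32 (-0.05 to 0.68, adjusted p = 0.389), for Zeb2 0.29 (0.05 to 0.53, adjusted p = 0.259) and for Twist1 0.25 (0.03 to 0.47, adjusted p = 0.287). Zeb1 and Snai1 were at 0.20 and 0.14, with intervals that included 0. In TPM the ratio of OSM-ESCs to LIF-ESCs was 1.11 to 1.38, with a median of 1.28. The 15 fibroblast markers had ratios of 1.22 to 1.55 with a median of 1.37. Of the 14 tested, 14 were above 0 on the log2 scale, against 9747 of all 18556 genes tested. Past the test were 4 (Col1a1, Col1a2, Lox and Mmp2, named after their values were seen), where 0.463% of all genes were higher. Of the 20 mesenchymal genes 8 were higher and 0 lower, with a median log2 fold change of 0.44 and the largest values for Acta2 and Tagln, both at 0.73, whereas the median of the epithelial genes was -0.07 and none of those passed. The counts of 8 mesenchymal genes and 4 fibroblast markers were both 0 in the fits that left Vim short of the threshold, and voom passed 13 of the fibroblast markers. Neither cytokine group was set apart in Cdh1, at -0.04. The part of the fibroblast markers in the difference of Vim was not tested.

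**Figure D5:**
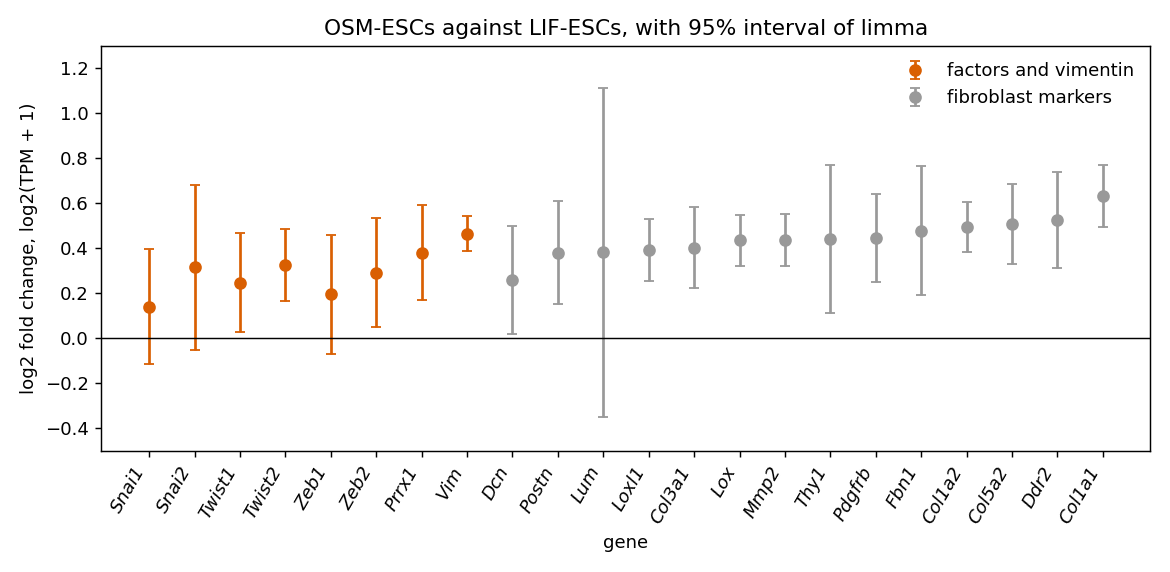
Log2 fold change of OSM-ESCs against LIF-ESCs on the log2(TPM + 1) scale with the 95% interval of limma (n = 2 per group), for the 8 genes and for the 14 fibroblast markers tested. All 22 values are above 0, as are those of 9747 of the 18556 genes tested. Vim is at 0.47, the 7 factors at 0.14 to 0.38 and the markers at 0.26 to 0.63.

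For each of the 8, the 3 genes of most like pattern were the ones with the lowest root mean square difference of log2(TPM + 1) over the 6 libraries, each profile centred on its own mean, among 12924 genes with a symbol of their own. For Prrx1 these were Cavin2 (0.02), Cdh11 (0.06) and Ltbp2 (0.07). Cavin2, which encodes a protein of caveolae, went from a mean of 0.0993 TPM in -LIF-ESCs to 16.0 TPM in LIF-ESCs and 21.04 TPM in OSM-ESCs, close to the means of Prrx1. Snai2 was nearest to Lgals3bp, Hoxc8 and the fibroblast marker Fbn1, and Twist1 to Ap5z1, Hoxc6 and Mmp14, a membrane-bound matrix protease. Twist2 was nearest to Map6, Akap2 and Cpq, Zeb1 to Slfn5, Clcn7 and Clca3a1, and Zeb2 to Itm2b, Ccbe1 and Ubr4. On the log2(TPM + 1) scale a gene of very low TPM can lie near without a like ratio of TPM. Clca3a1, for one, went from a mean of 0.0113 TPM in -LIF-ESCs to 2.71 TPM in LIF-ESCs, and Zeb1 from 0.776 to 5.04 TPM. Lpp, a focal adhesion protein, was nearest to Vim (0.02), followed by Aga and Aldh1a1, and Fbxl12, Ndufb6 and Mob2 were nearest to Snai1. None of the 24 genes is itself among the 8, and 1 is on the fibroblast list. Cdh11 and Mmp14 are on the list of mesenchymal genes. The fibroblast list has 14 genes tested and the mesenchymal list 20, so few of the 12924 compared could be on either.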

How the data were processed

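Sequencing libraries of mESCs at P10 numbered 6, with 2 per medium. The titles, growth protocol and study describe mESCs, while the extract protocol in the labels names rOvaries as the source of RNA. Reads were trimmed by the authors with Trimmomatic, mapped to mm10 with HISAT2 and assigned to genes by featureCounts, and the values deposited by the authors are TPM. Tool versions, the annotation, the strand setting and the step from counts to TPM are not given in the sources used here. The test was limma 3.58.1 (lmFit, then eBayes with a trend, in R 4.3.3) on log2(TPM + 1). It covered 18556 genes that reached 1 TPM in 2 or more libraries, with the 3 groups in 1 fit (3 residual degrees of freedom, 5.3 with the prior). P-values were two-sided and adjusted by the Benjamini-Hochberg method over all genes tested. With 2 libraries per group, 0.333 is the smallest two-sided p of an exact permutation test, so p-values rest on the model. The study calls the replicates biological, but whether they were separate cultures is not stated, so the spread may be technical in part.

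Reads were recovered from TPM with exon lengths of GENCODE M21 (GRCm38), in which 99.4% of symbols were found once. Of the values, 95.4% were whole within 0.02 of a read, and those of the 8 genes were whole in all libraries. Intervals from these reads cover counting error only. Positions of genes are those of GENCODE M21, and promoter windows those of RefSeq. The script was tested on simulated data.

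The members and gene lists were chosen with earlier results of these data known. Besides the 8 genes and Cdh1, Cdh2 and Fn1, the text names of each list the top 2 and the bottom 2 genes by log2 fold change in LIF-ESCs against -LIF-ESCs, and for each of the 8 the 3 genes of most like pattern. Other genes named (Sox4, Prrx2, Acta2, Lmnb2, Fap, Pou5f1, Sox2 and some fibroblast markers) were singled out after their values were seen. Alternatives were each replicate left out, limma's voom on recovered reads, libraries rescaled by the median ratio, a replicate block, fits of the compared groups alone, eBayes with no trend, a pseudocount of 0.1, and a filter of 5 TPM or none. Python 3.11.15 was used with matplotlib 3.10.9, numpy 2.4.6 and pandas 2.3.3. Ptprc, Emcn, Pax7, Mir200b, Mir200c and Mir141 of the lists were not analysed here.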

Additional observations from a re-analysis of the deposited data

Results flagged for a closer look

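Over -LIF-ESCs, the log2 fold change of Vim was 0.95 with OSM and 0.49 with LIF, and the difference between the 2 effects, which is the comparison of OSM-ESCs with LIF-ESCs, was 0.47 ± 0.03 (SE, limma adjusted p = 0.0256). It was higher in 2 of 2 OSM-ESC libraries. This test of the difference was past the threshold, but under 9 of the 14 alternatives it was not, with the log2 fold change still at 0.46 to 0.47. Among those 9, eBayes without a trend passed 12 of all genes tested, and the fit of only the groups compared and the replicate block passed 0, against 110 here. Without a trend, the same libraries and the same log2 fold change left Vim short, so its adjusted p depends on the setting. No other of the 8 genes differed in this way at an adjusted p under 0.05 in the same fit.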

How the results depend on the processing

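None of the 8 genes changed direction under any alternative. Against -LIF-ESCs, 5 to 6 of them were called in each comparison: 5 in both with a filter of 5 TPM, which removes Zeb2, and 5 in LIF-ESCs after rescaling by the median ratio, which puts the median of all genes at 0. With a pseudocount of 0.1 Prrx1 was at 6.44 and 6.84, and with voom at 7.54 and 7.94. Counts of OSM-ESCs against LIF-ESCs moved more, and the cause was not tested. Of the 8 genes 1 passed, but 0 with eBayes without a trend, in the fit of only the groups compared and in the replicate block, 4 with voom (Twist2, Zeb2, Prrx1 and Vim), and 0 in every fit without 1 library. Of mesenchymal genes 8 passed, but 5 with a pseudocount of 0.1, 0 with eBayes without a trend, only the groups compared or the replicate block, 17 with voom and 0 in every fit without 1 library. Of intermediate filament genes 1 (Nes) passed, but 0 with a pseudocount of 0.1, no filter, eBayes without a trend, only the groups compared or the replicate block, 4 with voom and 0 in every fit without 1 library. From 0, voom gave 1 of the other transition factors, 2 epithelial genes, 5 of TGF-beta signalling and 2 partners, and the filter of 5 TPM gave 1 of TGF-beta signalling. Mir200a went from 0 to 1 against -LIF-ESCs in the fit of only OSM-ESCs and -LIF-ESCs, and was 0 to 1 in both comparisons when 1 library was left out, the 1 without LIF-ESC replicate 1. The same replicate numbers did not deviate together (r of -0.043, -0.023 and 0.027 between groups across genes), so they do not pair the libraries, and apart from the counts above the block moved no count by over 1.5 times. A lone library is assumed to vary like the others.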
